A study of Brassica napus with 6 samples.

Results

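In young floral buds of rapeseed (Brassica napus), 150 transcripts were higher in 1 control library, F3, and in 1 amidosulfuron library, DAT2, than in each of the other 4 libraries. They were taken from 24958 transcripts with enough counts, out of 65535 tabulated. Each count was divided by the library's total and scaled to counts per 1000000 (CPM). The score of a transcript was the lower CPM of F3 and DAT2 plus 1, divided by the highest CPM of F1, F2, DAT1 and DAT3 plus 1. The 150 highest scores were kept, so the higher levels in F3 and DAT2 are how the transcripts were chosen and not a finding. This pair crosses the treatment groups, and the question is how bud samples of one treatment varied among themselves.

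The study compared buds of the cultivar Qinyou3 after a spray of 0.3 mg/L amidosulfuron at bolting (DAT1, DAT2 and DAT3) with buds of plants sprayed with water (F1, F2 and F3). Each group had 3 biological replicates, all from plants sown in the field and later moved to a greenhouse. All buds were labelled as at meiosis of the pollen mother cells. The labels give neither an age, a collection day nor an extraction batch for single libraries. Below, the libraries are called control 1 to 3 and amidosulfuron 1 to 3.

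Amidosulfuron is a sulfonylurea, a class of herbicides that inhibits acetolactate synthase and with it the synthesis of branched-chain amino acids. A male gametocide is a chemical that makes plants male sterile. A young flower bud encloses sepals, petals, stamens and pistil, and in its anthers the pollen mother cells lie inside the tapetum, a layer that nourishes them. Rapeseed carries a genome derived from Brassica rapa and one derived from Brassica oleracea, so similar transcripts of both can match one Brassica rapa gene. Transcripts were assembled with Trinity, which groups related sequences into components. A name such as comp3030_c0_seq1 gives the component first and the sequence within it last. The tables pair transcripts with Brassica rapa gene identifiers that carry no symbol, and 0 of 20674 identifiers matched the RefSeq gene table of Brassica napus. No function is therefore given for any transcript, and the bud tissue could not be checked against marker genes.

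The libraries of the pair did not stand at the edge of the 6 in depth. Their tabulated totals were 2414727 counts in control 3 and 2867528 in amidosulfuron 2, against 1942711 to 3596321 in the other 4. Detected transcripts, those with at least 1 count, numbered 47452 and 49058, within the 44812 to 51128 of the others. The 10 most abundant transcripts took 4.23% and 3.87% of the counts, against 3.61% to 4.69%. Counts of transcripts without a Brassica rapa match were the exception. They made up 6.81% of control 3 and 7.38% of amidosulfuron 2, below the 7.59% to 8.59% of the other libraries, and their part in the results below was not tested. A level of 3 counts, taken as the limit that a count of 0 allows, was 0.834 CPM in control 1 and up to 1.54 CPM in amidosulfuron 1.

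Over all 150 transcripts together, the summed level was 14181 CPM in control 3 and 12100 CPM in amidosulfuron 2. It was 3118 CPM in control 1, 2907 in control 2, 3190 in amidosulfuron 1 and 1842 in amidosulfuron 3. The 4 lower libraries thus held between 0.184% and 0.319% of their tabulated counts in these transcripts, and the pair held 1.42% and 1.21%. By group the sums were 6735 CPM ± 6449 in control buds and 5710 CPM ± 5574 in amidosulfuron buds (SD, n = 3), so that the spread inside each group was about as large as its mean. The 20 members of the highest CPM carried 57.6% of the sum in control 3 and 51.7% in amidosulfuron 2, and 45.0% to 52.4% in the other 4. Without them 6017 and 5841 CPM were left in the pair and 1012 to 1674 CPM elsewhere, an order that the rule fixes. The median member was at 32.5 CPM in control 3 and 28.8 CPM in amidosulfuron 2, and at 4.12 to 6.82 CPM elsewhere. In bulk buds, more cells of a kind and more RNA per cell cannot be told apart.

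**Figure D1:**
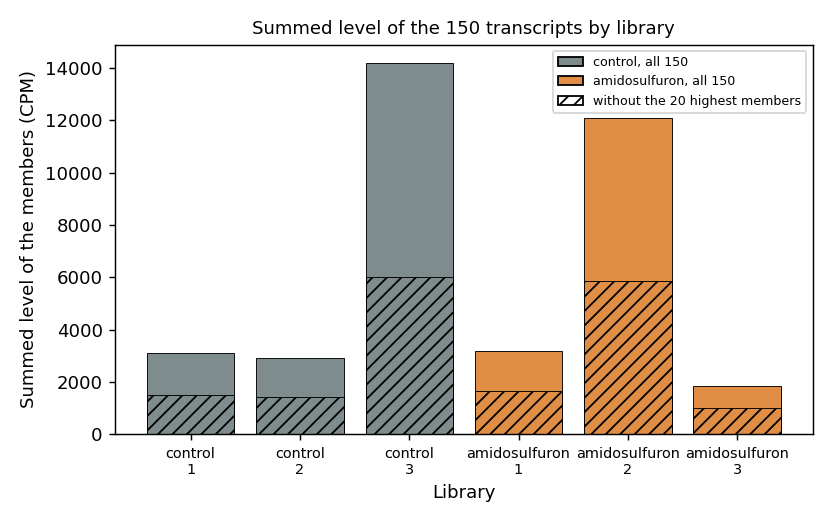
Summed level of the 150 transcripts (CPM, vertical axis) in each of the 6 libraries, as bars that start at 0, with the part left without the 20 highest members hatched. Control 3 (14181 CPM) and amidosulfuron 2 (12100 CPM) stand above the other 4 libraries, of which amidosulfuron 3 is the lowest (1842 CPM).

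The scores ran from 86.5 to 1.83, with a median of 2.15. A score of 10 or more was reached by 5 transcripts, 10 scored between 5 and 10, 19 between 3 and 5, 70 between 2 and 3, and 46 below 2. The list has no natural edge. The transcript ranked 150, at 1.833, had 19.3 CPM in control 3, 19.0 in amidosulfuron 2 and at most 9.92 elsewhere, and the first one left out scored 1.830 with 17.3, 19.0 and at most 9.01 CPM. A score above 1 means that control 3 and amidosulfuron 2 hold the highest levels of all 6 libraries, and 12.0% of all tested transcripts (2994) met this.

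**Figure D2:**
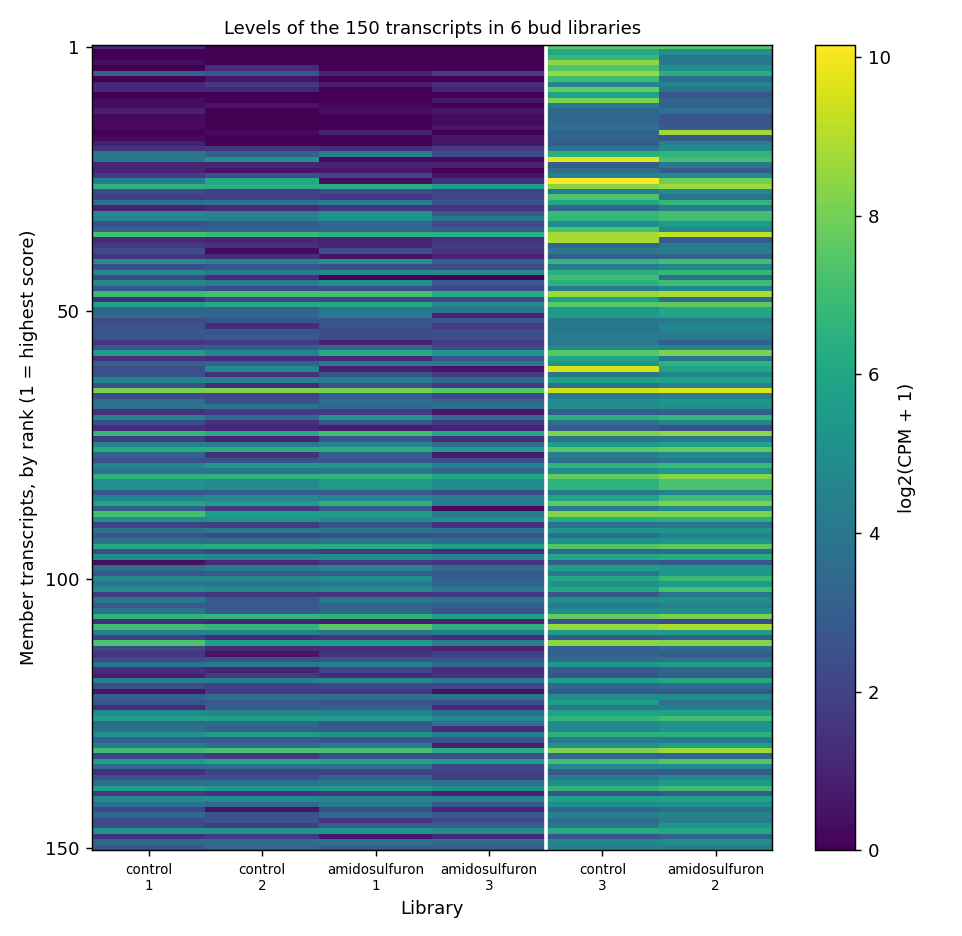
Level of each of the 150 transcripts as log2(CPM + 1) (colour), with transcripts in order of score from top to bottom and the 6 libraries from left to right. The pair chosen by the rule stands right of the white line, and the darkest rows left of it are at the top, where the scores are highest.

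The transcript with the highest score, comp3030_c0_seq1, matched Brara.C00302 and is 750 bp long. It had 439 counts in control 3 and 522 in amidosulfuron 2, 4 counts in control 1 and 0 in control 2, amidosulfuron 1 and amidosulfuron 3. These counts are 182 CPM in both libraries of the pair and 1.11 CPM in control 1. A control bud sample and a treated one thus showed the same level of a transcript that was at or near 0 in the other 4. It is the only tabulated transcript of its gene and of its component, and its counts are whole numbers, which is what reads with 1 hit give. How reads with several hits were divided is not given, so whole counts do not show that each read had 1 hit.

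The second, comp109787_c0_seq1, matched Brara.F01434 and is 411 bp long. It had 167.7 counts in control 3 and 89 in amidosulfuron 2, or 69.4 and 31.0 CPM, and 0 counts in each of the other 4 libraries. In all, 3 members had no count in any of these 4, and 12 members stayed below 3 counts in each of them. A tested transcript at 0 in these 4 passes the count filter only through the pair, so the rule takes every such transcript. Of the 12, 11 were higher in control 3 than in amidosulfuron 2, as were 42.5% of all tested transcripts. All 12 passed the filter only through the pair, so this count is a description and not a test. The 12 include the 4 members of Brara.H02202 and sequences of Brara.H01742, so they are not independent.

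At the other end of the range were transcripts well expressed in all buds. The member with the highest level in the lower of the pair, comp50031_c0_seq1, matched Brara.D02049 and is 1115 bp long. It had 672 CPM in control 3 and 807 in amidosulfuron 2, against 259 in control 1, 289 in control 2, 257 in amidosulfuron 1 and 179 in amidosulfuron 3. The next was comp56395_c1_seq2, matched to Brara.G01101 and 650 bp long. It stood at 435 and 593 CPM in the pair, and at 146, 116, 90.0 and 82.6 CPM in control 1, control 2, amidosulfuron 1 and amidosulfuron 3. Both transcripts were lowest in amidosulfuron 3. Over all members, the highest of the other 4 libraries was under 1 CPM for 14, between 1 and 10 for 68, between 10 and 100 for 59, and 100 CPM or more for 9.

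The rule required only the lower level of the pair to be high, and within the pair the members divided unevenly. In 132 of the 150, control 3 and amidosulfuron 2 lay within 4-fold of each other (CPM + 1), and 28 of these differed by at most 1.1-fold. Among the 132, amidosulfuron 2 was the higher library in 107, with a median ratio of control 3 to amidosulfuron 2 of 0.812. Over the whole list control 3 was higher in 28.0%, against 42.5% of all tested transcripts. In 17 members control 3 was more than 4-fold above amidosulfuron 2, with a median ratio of 8.56, and in 1 member the reverse held. Among all tested transcripts, 292 were more than 4-fold higher in control 3 and 85 in amidosulfuron 2, or 1.51% together. These are values of 1 library against 1, with no replicate behind the ratio.

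The 17 members that leaned to control 3 came from 15 components and matched 15 genes. Their median level was 163 CPM in control 3 and 14.8 in amidosulfuron 2, and 1.53, 1.35, 0.257 and 0.485 CPM in control 1, control 2, amidosulfuron 1 and amidosulfuron 3. They made up 5429 of the 14181 CPM in control 3, but 718 of the 12100 CPM in amidosulfuron 2. The 132 balanced members had medians of 25.9 and 31.0 CPM in the pair and of 5.33 to 8.18 CPM in the other 4, and 6 of them stayed below 3 counts in each of these 4. Members that leaned to control 3 thus had medians near the limit of counting outside the pair, and the balanced members had medians above it. Of the 17, however, only 5 stayed below 3 counts in each of the other 4 libraries. The highest of the 17 in control 2 stood at 69.0 CPM there.

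**Figure D3:**
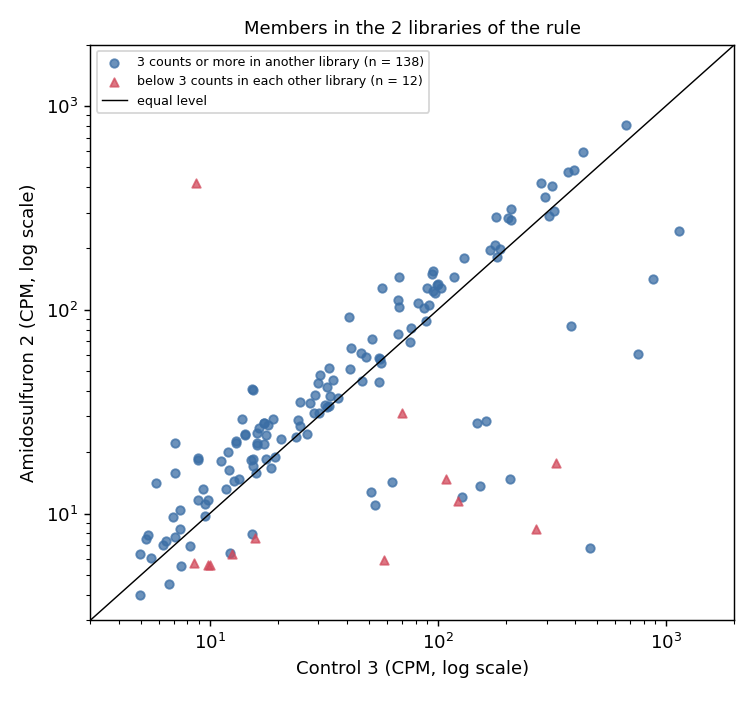
Level of each member in control 3 (horizontal axis) and in amidosulfuron 2 (vertical axis), both in CPM on log scales, with triangles for the 12 members below 3 counts in each other library. Most members follow the line of equal level and lie slightly above it, 17 lie far below it, and 1 lies far above it.

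The largest lean to control 3 was that of comp57971_c0_seq5, matched to Brara.B02245 and 1318 bp long. It had 1126 counts in control 3 (466 CPM) and 19.5 in amidosulfuron 2 (6.80 CPM), and 1.03 to 1.70 CPM in the other 4. Its place in the list rests on the 19.5 counts of amidosulfuron 2, and the rest of its pattern is that of control 3 alone. Among matched members the largest lean to amidosulfuron 2 was small by comparison. That transcript, comp34157_c0_seq1, matched Brara.G00418, is 540 bp long, and had 64 counts in amidosulfuron 2 (22.3 CPM) and 17 in control 3 (7.04 CPM), with at most 0.834 CPM elsewhere. The lean was smaller for its gene, whose 3 tabulated transcripts summed to 24.4 CPM in amidosulfuron 2 and 12.4 in control 3. Elsewhere these sums were at most 3.155 CPM. The 1 member more than 4-fold above control 3, comp40016_c0_seq2, has no match and was singled out after its values were seen. It stood at 417 CPM in amidosulfuron 2, 8.70 in control 3 and 1.03 or less in the other 4.

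The 4 libraries outside the pair were not alike for these transcripts. Amidosulfuron 3 was the lowest of the 4 in 72 members (48.0%), against 20.9% of all tested transcripts, and amidosulfuron 1 was the highest in 57 (38.0%), against 21.0%. So the transcripts high in the pair were most often lowest in a treated library and most often next highest in another treated library. In 15 members (10.0%, against 0.24% of all tested transcripts) the lowest level was tied and counted for no library. The groups stayed apart among these 4 less plainly. Both controls lay above both treated libraries in 32 members (21.3%, against 29.0% of all tested transcripts) and below both in 11 (7.33%, against 19.6%). The rule used the highest of the 4 and not their order, but these shares come from the same libraries and carry no test.

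For the study's own comparison, amidosulfuron against control buds, no member passed the test. With edgeR's quasi-likelihood test and Benjamini-Hochberg adjustment over all 24958 transcripts, 0 of 150 members passed an adjusted p of 0.05 (smallest adjusted p 0.394), where 0.192% of all tested transcripts passed. At an unadjusted p under 0.05 there were 3 members in edgeR, where the share of all tested transcripts was 11.1%. DESeq2 called 0 members, against 1.21% of all tested transcripts. It gave no adjusted p for 34 of the tested transcripts, and 19 of these were members. Its 0 calls thus cover only the members with an adjusted p. At an unadjusted p under 0.05 it took 1 member and 7.77% of all tested transcripts. Limma-voom called 0 members and 0% of all tested transcripts, and at an unadjusted p under 0.05 it took 0 members and 9.50% of all. The thresholds of the series' design text, an unadjusted p of at most 0.05 and a log2 fold of at least 1, took the same 3 members as edgeR's unadjusted p and 5.48% of all tested transcripts. When low counts were not filtered out, edgeR called 2 of the members, comp57971_c0_seq5 as lower (adjusted p = 0.031) and comp40016_c0_seq2 as higher (adjusted p = 0.0446), and 0.760% of all transcripts. The choice of members bears on these counts. Each member has 1 high and 2 low libraries in both groups, so the groups overlap by construction in all 150, where 16.0% of all tested transcripts showed no overlap. Nothing about the treatment is read from the low count of calls.

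The replicates of a group differed widely in these transcripts. Within a group, the highest library exceeded the lowest one, with libraries under 3 counts set at 3 counts, by a median factor of 4.73 in control buds and 5.69 in amidosulfuron buds over the members. Over all tested transcripts these medians were 1.66 and 1.55. The median coefficient of variation fitted by edgeR was 61.8% for members and 25.8% for all tested transcripts. These values follow from the way the members were chosen.

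The fitted log2 fold of the members, amidosulfuron minus control, had a median of 0.18 (quartiles −0.10 and 0.40), beside −0.02 (quartiles −0.32 and 0.29) over all tested transcripts. It was above 0 in 101 members (67.3%, against 48.3% of all). A fold of at least 1 on the log2 scale in either direction was fitted for 18.0% of members and 7.03% of all, and no such member passed the adjusted threshold. The 17 members that leaned to control 3 all had negative folds, between −5.44 and −1.58, and 100 of the 132 balanced members had positive ones. With the other 4 libraries lower by the rule, the folds mostly restate which library of the pair was higher. Amidosulfuron 2 was the higher in 107 of the 132, and sign and size are not read as effects of the treatment. The 3 members at an unadjusted p under 0.05 were comp57971_c0_seq5 (log2 fold −5.44), comp54570_c0_seq2, matched to Brara.A00541 (−4.74), and comp40016_c0_seq2 (5.61), each with 1 library far above the other 5.

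**Figure D4:**
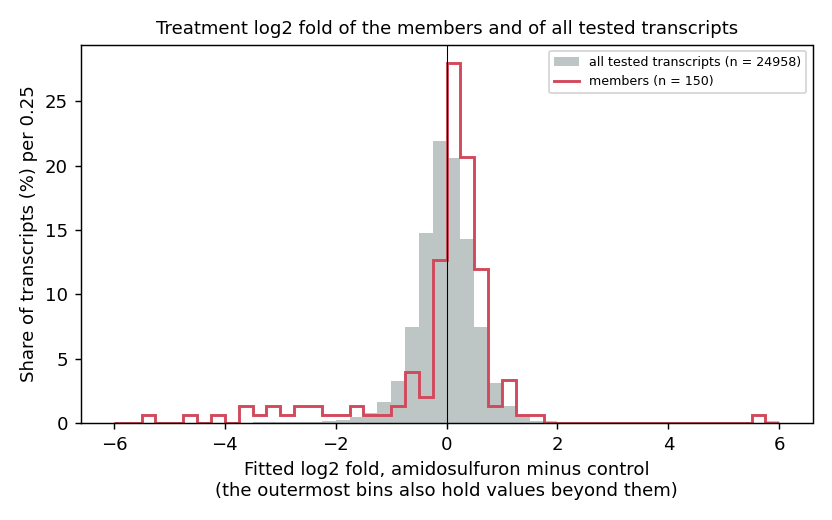
Share of transcripts (%, vertical axis) by fitted log2 fold, amidosulfuron minus control, in bins of 0.25, for the 150 members (line) and for all 24958 tested transcripts (filled). The members centre slightly above 0 (median 0.18) and have a tail of negative folds made up of the members that leaned to control 3.

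With control 3 and amidosulfuron 2 both left out, a fit chosen after the data were examined, the comparison rests on 2 control and 2 amidosulfuron libraries. There 2 of the 150 members were lower in amidosulfuron buds and 0 were higher (edgeR, adjusted p under 0.05), where 0.264% of all tested transcripts were lower and 0.922% were called in either direction. Both are transcripts of component comp55490_c1 and match Brara.A03137, so they are not independent. The first, comp55490_c1_seq1, stood at 19.5 CPM in control 1, 69.0 in control 2 and 1138 in control 3, and at 0.257, 245 and 1.70 CPM in amidosulfuron 1, 2 and 3 (log2 fold −5.27 without the pair, edgeR adjusted p = 0.0481). The second, comp55490_c1_seq3, had 15.7, 35.1 and 876 CPM in the controls, and 0.257, 141 and 0.242 CPM in the amidosulfuron libraries (log2 fold −8.88 without the pair, edgeR adjusted p = 0.0203). With all 6 libraries neither passed. The rule used the highest level of these 4 libraries, and nothing about the treatment is read from the calls of 1 gene in a fit chosen this way. The median log2 fold of the members without the pair was −0.06, against 0.18 with it.

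Some members were sequences of one gene. Of the 150, 147 matched 114 Brassica rapa genes, and 24 of these genes held 57 of the members. The 150 came from 125 components, 20 of which held 45 members. In control 3, 69.3% of members had fractional counts, against 70.2% of all tested transcripts, which a read with 1 hit does not give. Members of one gene can share reads and are not independent. The 2 genes named by the rule are Brara.F01455 and Brara.F01692, with 4 members each. The members of Brara.F01455 lie in 1 component, and their sums were 363 and 381 CPM in control 1 and 2, 1021 in control 3, and 379, 1297 and 199 CPM in amidosulfuron 1, 2 and 3. Those of Brara.F01692 lie in 2 components, and their sums were 18.8, 6.08 and 54.7 CPM in control 1, 2 and 3, and 20.9, 93.7 and 9.70 CPM in amidosulfuron 1, 2 and 3. Brara.H02202 also had 4 members and comes after them only in the order of names.

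Transcripts of the same genes that the rule did not take showed the pattern as well. Of 67 other tested transcripts of the member genes, 53 (79.1%) were highest in control 3 and amidosulfuron 2, against 11.5% of all tested transcripts that are not members. Of the 67, 37 lie in components without a member, and 26 of those (70.3%) showed it. In 1 of the 67 (1.49%) the pair was lowest, against 8.08% of those that are not members. In 39 member genes the counts outside the members, summed per gene, passed the filter, and in 33 of them (84.6%) these sums were highest in the pair, against 13.5% of 13040 genes with all their transcripts summed. For 47 member genes the member is the only tabulated transcript. For 67 genes with further transcripts, the counts outside the members summed to 6915 CPM in control 3 and 3799 in amidosulfuron 2, and to 1050 to 1716 CPM in the other 4. Outside the members, the sequences of these genes were thus also highest in the pair in sum. The part of shared reads in this was not tested. Reads can be shared between components of one gene as well, so the 37 transcripts in other components do not separate it.

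**Figure D5:**
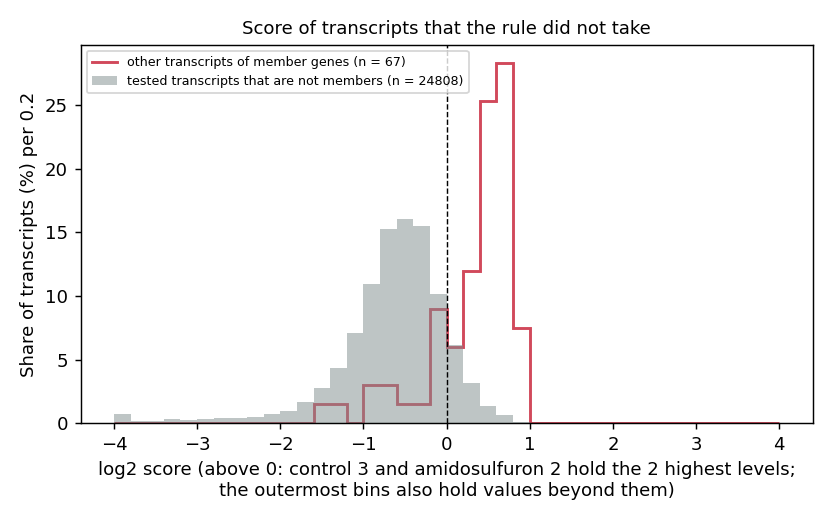
Share of transcripts (%, vertical axis) by log2 score in bins of 0.2, for 67 other tested transcripts of the member genes (line) and for 24808 tested transcripts that are not members (filled). To the right of the dashed line control 3 and amidosulfuron 2 hold the highest levels, as they do in 79.1% of the former and 11.5% of the latter, and no transcript here can exceed the score of the last member.

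Members were matched to Brassica rapa more often than other transcripts. Only 3 of 150 (2.0%, exact 95% interval 0.414% to 5.73%, for counting error only) had no match, against 11.4% of all tested transcripts. The interval takes the 150 as independent, which members of one gene are not, so it can be too narrow. It is no test against the share of all tested transcripts. Among all tested transcripts the pair was highest in 5.45% of the unmatched and in 12.8% of the matched, and lowest in 10.6% and 7.70%. This runs with the lower share of unmatched counts in control 3 and amidosulfuron 2 given above. The members' transcript length was close to that of the rest, with a median of 944 bp (quartiles 532 and 1210) beside 899 bp (567 and 1283) over all tested transcripts with a known length.

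The mirror list, the 150 transcripts lowest in control 3 and amidosulfuron 2 by the same score turned round, had lower scores. Its highest score was 3.30 and its median 1.83, beside 86.5 and 2.15, and 64 of its transcripts scored 2 or more against 104 of the members. Over all tested transcripts, 8.03% were lowest in the pair and 12.0% were highest. The mirror list matched 110 genes, with 13 unmatched transcripts (8.67%), and shared 0 genes with the members (0% of each list), a count too small in lists of this length to say anything of the genes.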

How the data were processed

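Digital gene expression libraries of 36 nt reads were made from total RNA of buds. Per the labels, the RNA was first turned into normalized cDNA, with no method given. Reads were aligned with Bowtie2 2.1.0, with 1 mismatch allowed, to transcripts of an earlier assembly matched to Brassica rapa FPsc 1.3, per the labels' series text. The authors deposited estimated counts with no normalization. How they divided reads with several hits is not given here. The authors' RPKM values are scaled to transcript length and mapped reads. They served only to recover transcript lengths (whole within 0.05 bp for 100.0% of control values) and the mapped reads, of which the tables hold 30.1% to 34.1%. Each table stops at 65535 transcripts.

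The filter kept transcripts whose upper quartile over the 6 libraries was at least 10 counts. Levels are CPM on tabulated totals. Counts were rounded and compared with edgeR 4.0.16 (TMM factors, quasi-likelihood test, group as the only term, Benjamini-Hochberg threshold 0.05) in R 4.3.3. DESeq2 1.42.0 and limma-voom (limma 3.58.1) were alternatives. The members and lists were chosen with earlier results of these data known. Named transcripts were the 2 highest scores, the 2 highest lower levels of the pair, and the largest lean to either library, among matched members and 1 per gene. The 2 genes with the most members were named too. Exact binomial intervals are from scipy 1.17.1, and figures from matplotlib 3.10.9. No sequence of the transcripts was used here.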

Additional observations from a re-analysis of the deposited data

How the results depend on the processing

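With edgeR, 0 members and 48 transcripts in all were called. Members called became 2 with no filter on low counts (comp57971_c0_seq5 lower, comp40016_c0_seq2 higher), 2 without control 3 and amidosulfuron 2 together, and 3 with the design text's thresholds (unadjusted p at most 0.05, log2 fold at least 1). They were 0 in the other alternatives, each single library left out included, but filterByExpr kept only 105 of the members for testing. The 48 became 301 with DESeq2, 498 with no filter, 0 with limma-voom (2370 at an unadjusted p under 0.05), 86 with RPKM denominators as library sizes, 230 without the pair and 1367 with the design text's thresholds. Leaving out 1 library gave 0 (control 2) to 240 (amidosulfuron 2). The replicate block gave 119 and a median member log2 fold of 0.033 in place of 0.18. Equal numbers do not pair the libraries by the labels, and deviations from group means over all tested transcripts correlated at 0.14, −0.12 and −0.40. Among all combinations of a control and an amidosulfuron library, the highest correlation was 0.36, for control 3 with amidosulfuron 2. The lowest was the −0.40 of control 3 with amidosulfuron 3, and neither was tested. Deviations from a group mean cancel within the group, which ties these correlations to each other. The highest and the lowest are therefore not separate observations. The median fold was −0.062 without the pair, and −0.89 (without amidosulfuron 2) to 1.11 (without control 3) with 1 library left out, a direction the choice of members fixes.

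Under other settings of the rule (library sizes, pseudocounts of 0.1 and 5 CPM, filters, rounding) 117 to 147 of the 150 were chosen again. Leaving out 1 of the other 4 libraries kept 89 (amidosulfuron 1) to 144 (amidosulfuron 3), with 94 without control 1 and 97 without control 2. No member lacked a match (0) at an upper quartile of 20 counts, where unmatched low-count transcripts are removed. The unmatched share of all transcripts past that filter is not given, so this 0 has no background beside it. The pattern in other transcripts of the member genes fell from 79.1% to 55.5% with no filter. It was 76.6% to 81.4%, the unmatched share 2.0% to 2.67% and the median length 911 to 929 bp with 1 of the other 4 left out. The pair then has fewer libraries to exceed. The share of all transcripts with the pattern is not given for these settings, so the changes are not read as changes in the member genes.

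The treatment folds of the 6 named members turned sign in 25 of their alternatives, with no call. For comp3030_c0_seq1 (−0.03) the log2 fold was 0.024 with library totals, 0.95 with limma-voom and 0.0039 with RPKM denominators. For comp109787_c0_seq1 (−1.07) it was 1.46 with limma-voom. For comp50031_c0_seq1 (0.02) it was −0.12 with limma-voom, −0.093 with the replicate block, −0.027 with RPKM denominators and −0.24 without the pair. For comp56395_c1_seq2 (0.11) it was −0.22 with limma-voom, −0.30 with the replicate block and −0.53 without the pair. Without the pair it was 0.38 for comp57971_c0_seq5 (−5.44) and −0.83 for comp34157_c0_seq1 (1.68). With 1 library left out the folds ran, in the order named, from −10.20 to 6.37, −8.79 to 7.79, −0.82 to 0.60, −1.36 to 0.94, −6.60 to 1.55 and −3.04 to 3.89. The causes were not tested. Depth limits the members at 0 in most libraries, where 3 counts are 0.834 to 1.54 CPM.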
